A study of Mus musculus with 4 samples.

Results

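The Lce3 genes form a compact family of 6 late cornified envelope genes on mouse chromosome 3, Lce3a to Lce3f. Members were taken as the non-control probes whose gene name in the scanner files is one of these, which gave 6 probes, 1 for each gene, out of 39429 probes that stand for 30340 genes or targets. The cornified envelope is the cross-linked protein shell that replaces the plasma membrane of a keratinocyte as it dies to become part of the skin surface. Late cornified envelope genes encode small proteins that transglutaminases join into this shell late in its assembly, and they lie in the epidermal differentiation complex together with loricrin, filaggrin and the small proline-rich (Sprr) genes. In human skin the LCE3 group is known for being low in healthy epidermis and induced after barrier injury and in inflamed skin, while the LCE1 group is a constant part of normal upper epidermis. No separate role is assigned here to each mouse Lce3 protein, and the members are described gene by gene.

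The study addressed differentiation and activation in primary cultures of keratinocytes that lack Pla2g2f, which encodes a secreted phospholipase A2. Keratinocytes from the whole skin of newborn C57BL/6 mice were freed with collagenase A (0.05%), grown for 3 days and held for a further 48 h with 1 mM CaCl2 or without it, which is the usual switch to terminal differentiation in culture. The 4 groups were Pla2g2f-/- cells with calcium, Pla2g2f-/- cells without calcium, Pla2g2f+/+ cells with calcium and Pla2g2f+/+ cells without calcium, each measured on 1 single-colour Agilent array of RNA pooled from 6 mice of the genotype. The labels do not say which part of Pla2g2f was deleted or how. With 1 array in each group there was no test, SD or p-value, and genotype cannot be told apart from cell preparation. The errors below are the scanner's own error for 1 spot, which leaves out the spread between cultures. In bulk RNA, fewer cells making a transcript and less transcript in each cell cannot be told apart.

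Levels are given as multiples of the array's 75th percentile of signal, and differences as log2 of the ratio of such levels. Those percentiles lay between 2638 and 3299 intensity units, and 67.0% to 68.6% of probes were well above background, the scanner's detection call. Pla2g2f itself had a level of 0.0866 and 0.0729 in -/- cells with and without calcium, and of 0.122 and 0.0982 in +/+ cells with and without calcium. Its single probe is not known to lie in the deleted part and so checks nothing about the labels. All 10 keratinocyte markers, such as the basal keratins Krt5 and Krt14, were well above background on every array. Markers of several other cells were higher in -/- cells, but not those of every cell type. Of melanocyte markers, 0 of 7 were at least 2-fold higher or lower in either comparison. Endothelial markers were below 0 in 6 of 6 compared with calcium and 7 of 7 without, at medians of −0.61 and −0.47 log2. Hair follicle markers went both ways, at medians of 0.04 with calcium and −0.50 without. Of 8 mast cell genes compared, 8 were at least 2-fold higher in -/- cells, both with and without calcium. Of all genes compared, 6.55% were with calcium and 4.65% without. Mast cell markers summed to 11.51 and 11.61 in -/- cells with and without calcium, against 1.68 and 1.53 in +/+ cells. The mast cell marker Ms4a2 was not well above background on any array. Adipocyte markers summed to 112 and 135.4 in -/- cells with and without calcium, against 27.2 and 40.6 in +/+ cells, with 8 of 8 at least 2-fold higher in both comparisons and Lep not above background on any array. Macrophage and Langerhans markers summed to 30.4 and 19.5 in -/- cells with and without calcium, against 4.50 and 5.61 in +/+ cells, with 9 of 12 at least 2-fold higher with calcium and 8 of 12 without. The Langerhans marker Cd207 was not well above background on any array. Fibroblast markers summed to 184.4 and 171.5 in -/- cells with and without calcium, against 98.6 and 113.2 in +/+ cells. Of 7 compared, 5 were at least 2-fold higher in -/- cells with calcium and 1 without. Keratinocyte markers ran the other way by less, with sums of 308.7 and 364.3 in -/- cells with and without calcium, against 437.6 and 443.9 in +/+ cells. In both comparisons 10 of 10 were lower in -/- cells. The median of all genes was also below 0, at −0.16 log2 with calcium and −0.18 without. Suprabasal keratinocyte markers summed to 42.8 and 11.7 in -/- cells with and without calcium, against 46.8 and 11.8 in +/+ cells, but members differed. With calcium 2 of 8 were at least 2-fold higher in -/- cells, the desmosome genes Dsg1a (10.05-fold) and Dsc1 (2.77-fold), and without calcium 1 of 5 was, Krtdap (2.74-fold). The part of these other cells in the Lce3 differences was not tested.

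The probes are 60 bases long and fall into 3 that resemble each other and 3 that resemble none. They are shown because near-identical probes can share signal, which decides how far the members count as separate readings. Positions are those of mm9 as the files give them, and the files do not say whether a probe lies in coding sequence or a UTR. Capitals in the next 3 mark runs of at least 12 bases that another Lce3 probe holds exactly.
Lce3b (chr3:92737872-92737931, plus strand): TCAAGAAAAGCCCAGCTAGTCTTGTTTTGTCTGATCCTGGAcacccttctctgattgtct
Lce3c (chr3:92749506-92749565, plus strand): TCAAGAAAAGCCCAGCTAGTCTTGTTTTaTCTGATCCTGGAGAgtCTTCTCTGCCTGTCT
Lce3d (chr3:92762371-92762430, plus strand): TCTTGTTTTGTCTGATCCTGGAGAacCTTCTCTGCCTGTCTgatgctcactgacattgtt
The probes of Lce3b and Lce3c matched at 54 of 60 bases, and 28 of these formed 1 unbroken run. Where the Lce3d probe overlaps them it matched Lce3b at 37 of 41 bases and Lce3c at 38 of 41. The values of Lce3b, Lce3c and Lce3d are therefore uncertain as separate measurements.

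The other 3 probes shared no run longer than 7 bases with any Lce3 probe. Capitals here mark AATAAA, the polyadenylation signal, which stands in the probes of Lce3a and Lce3e.
Lce3a (chr3:92729210-92729269, minus strand): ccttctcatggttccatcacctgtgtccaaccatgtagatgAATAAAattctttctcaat
Lce3e (chr3:92772139-92772198, plus strand): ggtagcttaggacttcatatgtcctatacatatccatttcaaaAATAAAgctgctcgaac
Lce3f (chr3:92797108-92797167, plus strand): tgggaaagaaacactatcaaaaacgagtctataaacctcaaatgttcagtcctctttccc
Apart from a 15-base run that the Lce3e probe shares with a probe for the hair keratin-associated gene Krtap19-9b, no member probe shared 15 or more bases with any probe outside the family. Lce3a, Lce3e, Lce3f and the trio of Lce3b to Lce3d thus give 4 readings whose probes do not resemble each other.

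Calcium-treated cells had more of every Lce3 transcript in both genotypes, and far more in +/+ than in -/- cells. Lce3c had a level of 2.83 ± 0.28 in -/- cells with calcium and 0.788 ± 0.079 in -/- cells without (scanner error). In +/+ cells its level was 12.03 ± 1.20 with calcium and 0.418 ± 0.042 without. The array of +/+ cells with calcium stood far above the other 3, and -/- cells with calcium stood above both untreated arrays. Lce3b followed the same order, at 1.55 and 0.460 in -/- cells with and without calcium and 6.87 and 0.279 in +/+ cells with and without calcium. So did Lce3d, at 2.96 and 1.01 in -/- cells and 12.9 and 0.597 in +/+ cells.

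The members with probes of their own had the same highest array. Lce3a had a level of 0.0861 and 0.0208 in -/- cells with and without calcium, and 0.695 and 0.0252 in +/+ cells with and without calcium. Lce3f stood at 0.0956 and 0.0411 in -/- cells, and at 0.695 and 0.0433 in +/+ cells. For both genes the untreated arrays of the 2 genotypes lay within scanner error of each other, so that only the treated arrays were set apart. Lce3e had 0.108 and 0.0528 in -/- cells with and without calcium, and 0.633 in +/+ cells with calcium. In untreated +/+ cells it was not well above background, with a measured level of 0.0217 ± 0.0050. Its differences against that array use this measured level and are uncertain, not strict bounds.

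**Figure D1:**
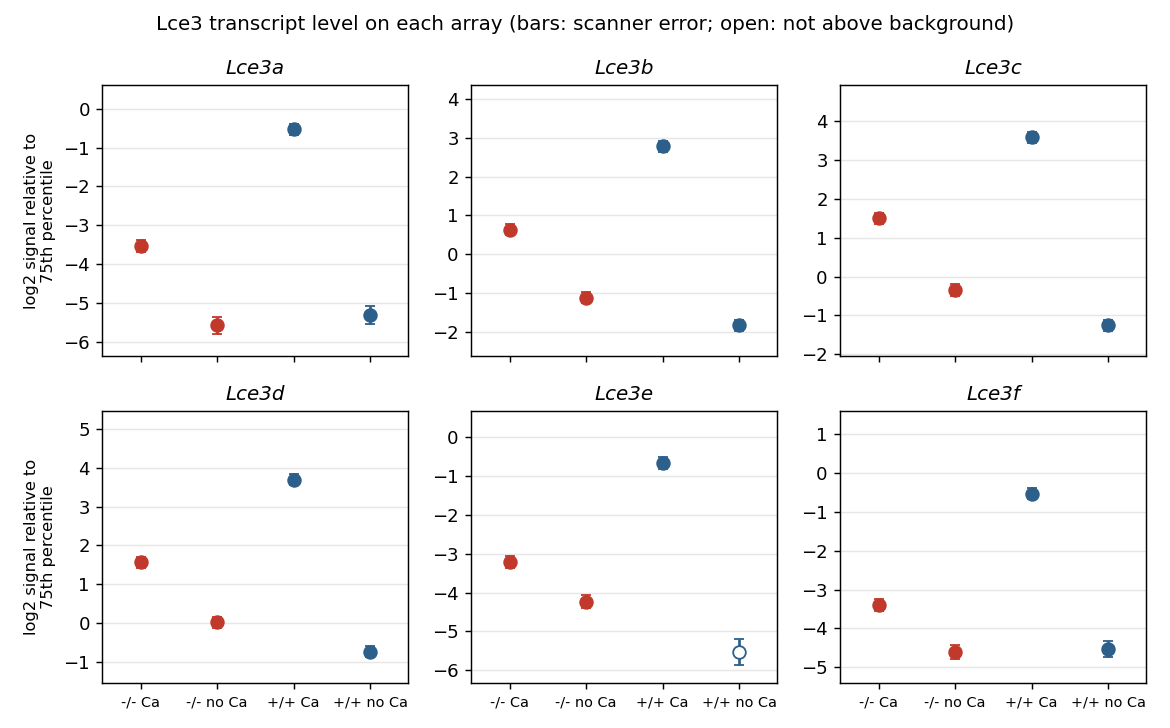
Level of each Lce3 gene on the 4 arrays, as log2 of the signal relative to the array's 75th percentile, with -/- cells in red and +/+ cells in blue. Points are single arrays, bars are the scanner error of the spot, and the open point of Lce3e marks an array where it was not well above background. In all 6 genes +/+ cells with calcium are highest and -/- cells with calcium are next.

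The calcium response of -/- cells asks whether the family is still induced when Pla2g2f is lost. All 6 genes were at least 2-fold higher with calcium, against 2.97% of the 21428 genes compared. The median difference was 1.65 log2, or 3.14-fold, while the median of all genes compared was −0.03. Lce3a had a difference of 2.05 ± 0.26 log2 (4.13-fold), Lce3c 1.84 ± 0.20, Lce3b 1.75 ± 0.20 and Lce3d 1.54 ± 0.20. Lce3f at 1.22 ± 0.24 and Lce3e at 1.03 ± 0.23 lay within scanner error of the 2-fold line. With normexp background correction these last 2 genes were 1.67-fold and 1.64-fold higher, under that line, and Lce3a was 2.46-fold higher, below Lce3b, Lce3c and Lce3d. The order of the members thus depends on the background step, and with quantile scaling Lce3e was 1.91-fold higher.

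The calcium response of +/+ cells is the same treatment in cells labelled +/+. All 6 genes were again at least 2-fold higher with calcium, where 2.47% of 21129 genes were, but by amounts of a different order. The 5 genes measured on both arrays had a median of 4.62 log2, or 24.6-fold, and lay between 16.1-fold for Lce3f and 28.8-fold for Lce3c. With Lce3e at 29.2-fold, against a level not well above background, the median over 6 was 4.70. The background step moved the dim members most. With normexp correction Lce3a was 13.04-fold, Lce3e 11.1-fold and Lce3f 8.35-fold higher, so the value of Lce3e depends on the background treatment. Lce3c was then 26.8-fold, Lce3b 21.6-fold and Lce3d 20.6-fold higher.

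**Figure D2:**
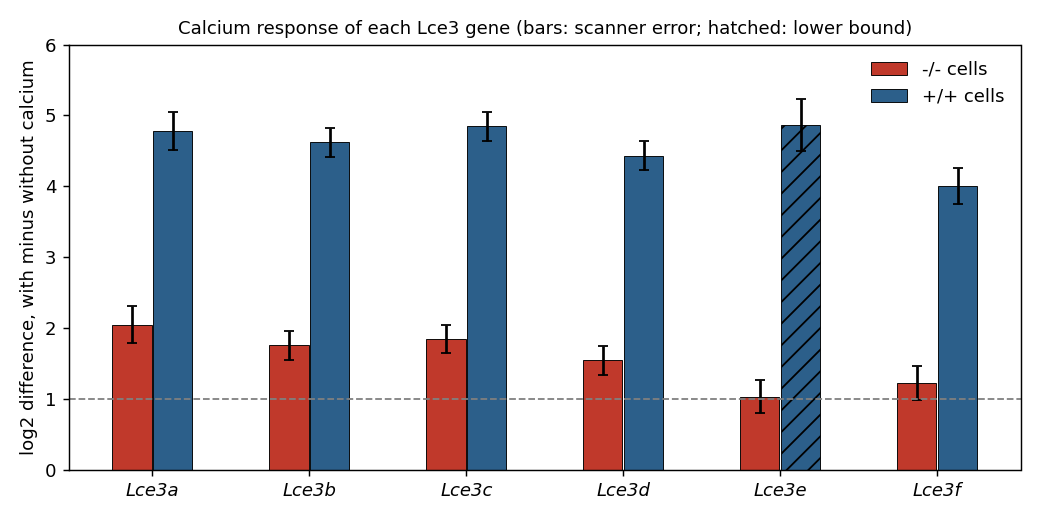
Calcium response of each Lce3 gene as the log2 difference between arrays with and without calcium, in -/- cells (red) and +/+ cells (blue). Whiskers are scanner errors and the dashed line is 2-fold. The hatched bar of Lce3e, called a lower bound in the title, uses a level not well above background. The -/- bars end at 2.05 or lower and the +/+ bars at 4.01 or higher.

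The difference of the responses, -/- minus +/+, compares these directly and uses all 4 arrays. It was below −1 for all 5 members that could be measured on every array, against 0.629% of 19227 genes, while 1.91% were above 1. Lce3c had −3.00 ± 0.29, Lce3d −2.89 ± 0.29, Lce3b −2.87 ± 0.29, Lce3f −2.79 ± 0.35 and Lce3a −2.74 ± 0.37. These 5 values spanned less than their own scanner errors, and their median was 7.29-fold. For Lce3e, not well above background in untreated +/+ cells, the difference was −3.84, but with normexp correction it was −2.76 (6.78-fold). The 5 measured genes thus had a similar reduction on the log scale with the background treatment used here. With normexp correction they lay further apart, from −2.92 for Lce3c to −2.41 for Lce3a and −2.32 for Lce3f. On the linear scale the gain with calcium in -/- cells was 15.8% to 17.6% of the gain in +/+ cells for Lce3b, Lce3c and Lce3d, and 8.36% to 9.75% for Lce3a, Lce3e and Lce3f.

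The genotypes were compared directly with calcium present. Every Lce3 gene was at least 2-fold lower in -/- cells, where 3.05% of 21564 genes were and 6.55% were higher by that much. The members' median was −2.35 log2 (5.09-fold) against −0.16 for all genes. Lce3a stood at 12.4% of its +/+ level (−3.01 ± 0.21), Lce3f at 13.7% (−2.86 ± 0.21) and Lce3e at 17.1% (−2.55 ± 0.21). Lce3b, Lce3d and Lce3c stood at 22.6%, 22.9% and 23.5% of their +/+ levels, with differences of −2.15, −2.13 and −2.09 and a scanner error of 0.20 each. The 3 genes with similar probes were thus the least reduced, a grouping made after the values were seen. With normexp correction Lce3e, at −2.20, came close to Lce3b at −2.12. Relative to the 10 keratinocyte markers, a scaling chosen after the data were seen, the median was −1.83, and all 6 genes were still at least 2-fold lower.

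Without calcium the order of the genotypes was the opposite for part of the family. Lce3c was 1.89-fold higher in -/- cells (0.92 ± 0.20 log2), Lce3d 1.70-fold (0.76 ± 0.20) and Lce3b 1.65-fold (0.72 ± 0.21). Lce3e was 2.44-fold higher against a level not well above background, 1 member past 2-fold where 4.65% of 21346 genes were. With normexp correction it was 1.47-fold higher and 0 members were past 2-fold, while scaling to the keratinocyte markers put 4 past it, Lce3b (2.06-fold), Lce3c (2.37-fold), Lce3d (2.13-fold) and Lce3e (3.06-fold). Lce3a (−0.27 ± 0.31) and Lce3f (−0.08 ± 0.28) lay within scanner error of no difference, and both turned to slightly above 0, at 0.06 and 0.10, with quantile scaling of the arrays, and at 0.05 and 0.25 with scaling to the keratinocyte markers. The median gene lay at −0.18 in this comparison, and the differences above are not adjusted for it. The genotype comparisons and the calcium responses share arrays.

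Among genes above background on all 4 arrays, 320 of 19227, or 1.66%, had the order seen in Lce3b, Lce3c and Lce3d, with +/+ cells with calcium highest, then -/- cells with calcium, -/- cells without and +/+ cells without. A narrower pattern, at least 0.5 log2 higher in -/- cells without calcium and at least 2-fold lower in them with calcium, was set after seeing these genes and was found in 16 of the 19227 genes (0.0832%). Of the 16, 3 were Lce3 genes and 7 were Lce1 genes. The rest were Kprp, a keratinocyte proline-rich protein gene of the same complex, Edn1, which encodes the peptide endothelin 1, Hcar2, which encodes the niacin receptor, and 3 without an informative name.

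The genes whose 4-array profile came closest to the mean Lce3 profile lay mostly in the same complex. Likeness was the root-mean-square distance between profiles centred on their own mean, over 4 arrays. Of 19793 other genes above background on both calcium arrays, 14721 with an informative symbol were ranked, which left out predicted genes, clone names and unnamed transcripts. The 10 closest were Lce1g (0.35 log2), Lce1i (0.39), the loricrin gene Lor (0.41), Lce1d (0.43), Lce1h (0.44), Kprp (0.46), the amino acid transporter gene Slc6a14 (0.48), Sprr2g (0.48), Lce1c (0.50) and Rnf39 (0.51). Slc6a14 lies on chromosome X and Rnf39 on chromosome 17, and the other 8 lie on chromosome 3. Slc6a14 was well above background only on the 2 calcium arrays. The Lce3 genes themselves were 0.14 (Lce3b) to 0.39 (Lce3a) from their own mean, and 8 other genes came within 0.5. Each member is part of that mean, so the members' distances are not comparable with those of other genes.

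The Lce1 genes, the other large family of late cornified envelope genes in the mouse, mostly shared the direction of the differences. Of 13 Lce1 genes, 9 were at least 2-fold higher with calcium in -/- cells and 13 in +/+ cells, against 2.97% and 2.47% of all genes. With calcium 9 of 13 were at least 2-fold lower in -/- cells, where 3.05% of all genes were. The Lce1 median was −1.24 against −2.35 for Lce3. The lowest Lce1 gene, Lce1d at −1.94, stood above all 6 Lce3 genes, of which the highest was Lce3c at −2.09. Lce1d lay within the scanner error of Lce3c (0.20), so the families are not clearly separated. Without calcium, against 4.65% of all genes, 6 of 13 Lce1 genes were at least 2-fold higher in -/- cells. Lce1f at 2.04 and Lce1a1 at 1.98 were the highest of them, where Lce3e at an uncertain 1.29 was the highest of its family. In the difference of the responses the Lce1 genes ran from −3.59 for Lce1d to −0.73, a range that holds all 5 measured Lce3 genes. Lce1m, the Lce1 gene nearest to Lce3f, had a calcium response of 3.47 in -/- cells and 4.29 in +/+ cells.

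The Sprr2 genes, small proline-rich envelope precursors, resembled Lce3 with calcium and differed from it without. Of 8 compared, 7 were at least 2-fold lower in -/- cells with calcium, where 3.05% of all genes were. The lowest Sprr2 genes were Sprr2d at −3.94 and Sprr2e at −3.83. Without calcium 8 of 8 were below 0 in -/- cells and 3 at least 2-fold lower, where 4.31% of all genes were. The median of all genes was −0.18 in that comparison, and 60.8% of them lay below the −0.08 of Lce3f. Sprr2h was lowest at −2.26 and Sprr2d stood at −1.41, while none of the Lce3 genes was under −0.27. Sprr2h had about the same calcium response in both genotypes, 1.94 in -/- cells and 1.78 in +/+ cells.

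**Figure D3:**
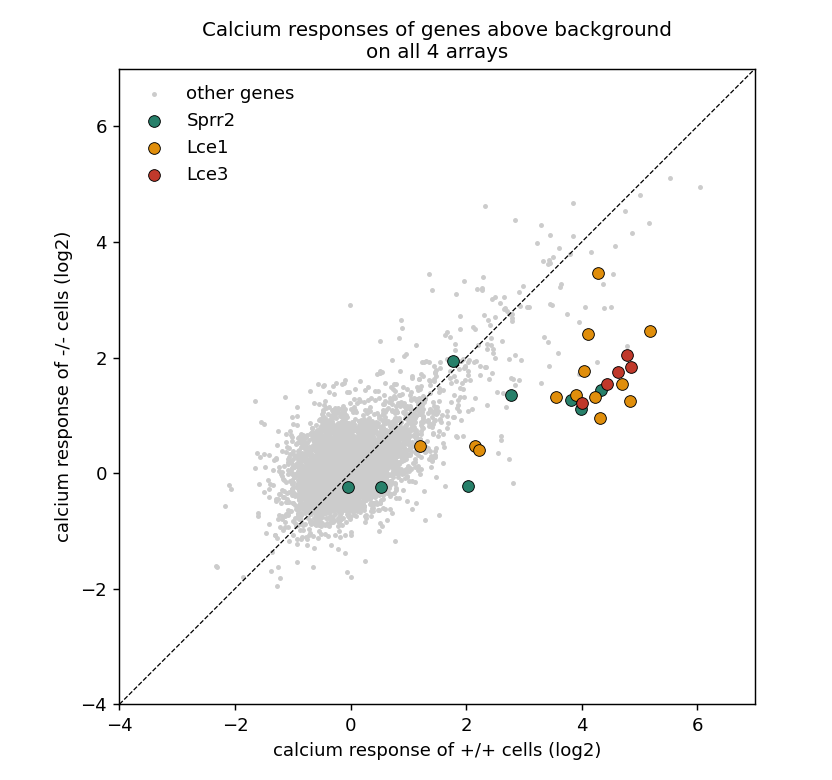
Calcium response of -/- cells (vertical) against that of +/+ cells (horizontal), both log2, for the 19227 genes well above background on all 4 arrays. Lce3 genes (red, 5 shown because Lce3e was dim on 1 array), Lce1 genes (orange) and Sprr2 genes (green) lie below the dashed line of equal response, apart from Sprr2h.

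Position along the chromosome was set beside these values. The 6 Lce3 probes span 68.0 kb and no probe for another named gene lies between them. On the Lce3a side the next named genes are 2310050C09Rik and Lce1l, with genotype differences with calcium of −2.08 and −1.40. On the Lce3f side the next are Crct1, a cysteine-rich gene of the complex, at −0.70, and Lce1m at −0.95. Crct1, which lies 55.0 kb from the middle of the cluster, was at least 2-fold higher with calcium in both genotypes, with 2.92 in -/- and 3.45 in +/+ cells, so its response was reduced by 0.53 only. Beyond Crct1 and Lce1m the first genes on that side, Tdpoz8 and the cornulin gene Crnn, were at 0.14 and 0.09.

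**Figure D4:**
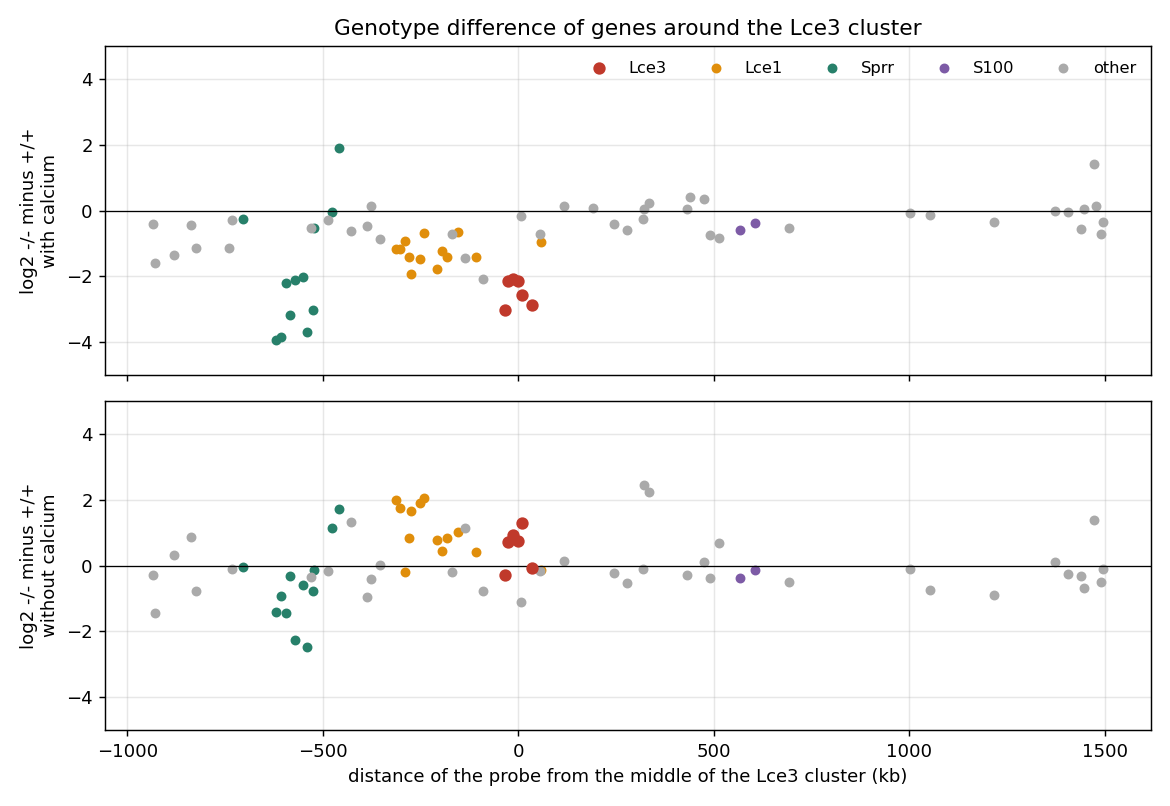
Genotype difference, log2 of -/- minus +/+, of genes within 1500 kb of the middle of the Lce3 cluster, with calcium (top) and without (bottom), against the distance of the probe in kb. The Lce3 genes (red) lie between −3.01 and −2.09 with calcium and between −0.27 and 1.29 without, and the Sprr genes (green) at the left reach −3.94 with calcium.

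1 unnamed probe allows a reading just outside a member. Of its 60 bases, 57 matched the RefSeq sequence before Lce3e, from 250 bases before the start of the gene, where the sequence used here begins, to 194 bases before it. It was picked out after its position had been seen, and is shown because it reads outside the gene.
Unnamed probe before Lce3e: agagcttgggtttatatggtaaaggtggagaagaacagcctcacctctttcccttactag
Its level was 0.0130 and 0.0119 in -/- cells with and without calcium, and 0.0147 and 0.0255 in +/+ cells with and without calcium. In log2 the levels were −6.27 and −6.39 in -/- cells with and without calcium, and −6.09 in +/+ cells with calcium. The lowest detected signals of those arrays were −6.35, −6.53 and −6.21, so these values lie near the floor. Within that limit the probe was not higher with calcium in +/+ cells (−0.79 ± 0.39 log2), where Lce3e was 29.2-fold higher against a level not well above background. The difference of the probe in -/- cells was 0.12 ± 0.45. Between the genotypes, -/- minus +/+, the probe was at −1.10 ± 0.39 without calcium and −0.18 ± 0.45 with calcium. Its untreated +/+ level was −5.30, above the lowest detected signal of that array, −6.07.

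The promoters of the 6 genes were examined because the genes were higher or lower together. RefSeq promoter sequences of GRCm38.p6 were found for all 6, and the stretch from 110 bases before the start to the first 10 of the transcript is shown on the strand of the gene. Capitals mark TTGNGAAA, CATGCTTG and ATAAAA, strings that were noticed in these sequences and then searched.
Lce3a (chr3:92926221-92926340, minus strand): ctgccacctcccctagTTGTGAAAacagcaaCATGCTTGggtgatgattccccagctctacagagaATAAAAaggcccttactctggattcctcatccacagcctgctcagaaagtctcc
Lce3b (chr3:92932869-92932988, plus strand): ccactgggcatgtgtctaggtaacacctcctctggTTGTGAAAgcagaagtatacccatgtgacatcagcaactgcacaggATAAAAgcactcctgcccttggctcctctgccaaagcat
Lce3c (chr3:92944376-92944495, plus strand): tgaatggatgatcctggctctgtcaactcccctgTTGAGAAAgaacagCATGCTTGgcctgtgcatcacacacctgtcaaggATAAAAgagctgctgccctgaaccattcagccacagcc
Lce3d (chr3:92957280-92957399, plus strand): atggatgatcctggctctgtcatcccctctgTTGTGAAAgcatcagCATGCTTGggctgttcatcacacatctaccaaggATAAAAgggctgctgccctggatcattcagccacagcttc
Lce3e (chr3:92966951-92967070, plus strand): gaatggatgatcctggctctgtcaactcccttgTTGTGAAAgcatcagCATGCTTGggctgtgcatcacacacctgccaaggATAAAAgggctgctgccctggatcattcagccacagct
Lce3f (chr3:92992107-92992226, plus strand): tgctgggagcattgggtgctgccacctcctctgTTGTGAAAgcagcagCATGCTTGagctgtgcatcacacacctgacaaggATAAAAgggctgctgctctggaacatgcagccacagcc
ATAAAA, at the place of a TATA box, began 28 to 30 bases before the start in Lce3b to Lce3f and 44 bases before it in Lce3a. TTGNGAAA stood 75 to 79 bases before the start in Lce3b to Lce3f and 94 before it in Lce3a. CATGCTTG lay between them in every promoter but that of Lce3b. These strings do not overlap each other in the windows shown.

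Searched on both strands over 32851 promoters of 300 bases, ATAAAA was in 18.5%, TTGNGAAA in 4.76% and CATGCTTG in 0.992% of them, and they were in 6, 6 and 5 of the 6 Lce3 promoters. In 13 Lce1 promoters ATAAAA was found in 12, and TTGNGAAA and CATGCTTG in 0. TATAAA, the TATA box, was in 1 of 6 promoters (13.6% of all), and only on the other strand of Lce3e. A TATAAA followed by A also holds ATAAAA. TTGCNNAA, a C/EBP motif, was in that of Lce3f alone (10.8% of all). The AP-1 motif TGANTCA (7.81%), the grainyhead-like motif AACNNGTT (4.20%) and the KLF motif GGGTGTGG (3.56%) were in none, which says only that these letters are absent from the 300 bases. Promoters were also compared in pairs without gaps, at the single offset with most matches, so an inserted or missing base lowers the count. On this measure Lce3d and Lce3e were the most alike, with 175 of 298 bases matching and a shared run of 49. The promoter of Lce3a matched each of the others at 34.6% to 38.2% of bases.

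Genes that act around the Lce3 proteins were read from lists. Among 10 genes of envelope cross-linking and late envelope assembly, 7 were at least 2-fold higher with calcium in -/- cells and 8 in +/+ cells. Of all genes, 2.97% and 2.47% were. Tgm1, the transglutaminase that cross-links envelope proteins, had 3.28 in -/- and 4.36 in +/+ cells. Sciellin (Scel), an envelope precursor, had 5.29 in -/- cells and 4.94 in +/+ cells, where it was not well above background without calcium. With calcium 3 of the 10 were at least 2-fold lower in -/- cells (3.05% of all genes), among them the lipoxygenase gene Aloxe3 at −1.84. Another 3 were at least 2-fold higher (6.55% of all genes), among them Scel at 1.74 and Tgm5 at 1.19. Of the 10, 7 were below 0 in -/- cells with calcium and 3 above, at a median of −0.45, where the median of all genes was −0.16. How far the deficit of the Lce3 genes is part of a wider one was not tested.

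Of 14 other genes of the epidermal differentiation complex compared, 8 were at least 2-fold higher with calcium in each genotype. Of all genes, 2.97% were in -/- cells and 2.47% in +/+ cells. With calcium 3 of the 14 were at least 2-fold lower in -/- cells and 1 higher, against 3.05% and 6.55% of all genes. Lor was at −1.35 in -/- cells with calcium, Kprp at −1.45 and involucrin (Ivl), an early envelope scaffold, at −0.46, while Sprr4 was at 1.90. No member of this list was lower than Lce3c, the highest of the Lce3 genes.

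Among 15 transcription factors of late differentiation, 5 were at least 2-fold higher with calcium in -/- cells and 6 in +/+ cells. Of all genes, 2.97% and 2.47% were. Grhl3, a grainyhead-like factor of barrier formation, had responses of 1.96 in -/- and 2.94 in +/+ cells, and stood at −1.31 in -/- cells with calcium. Zfp750, a zinc finger factor that drives terminal differentiation, had 2.57 in -/- and 2.42 in +/+ cells. Their response differences lay between −0.98 and 0.71, so that 0 of 15 were past 2-fold, where 0.629% of all genes were below −1 and 1.91% above 1. With calcium, 3 of the 15 were at least 2-fold lower in -/- cells, where 3.05% of all genes were. The lowest was the AP-1 subunit gene Fosl1 at −1.47. Another 3 were at least 2-fold higher, against 6.55% of all genes, the highest being Maf at 1.82.

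Genes of barrier injury and keratinocyte activation were listed because the human LCE3 genes respond to injury. Of 21 compared with calcium, 4 were at least 2-fold lower and 1 at least 2-fold higher in -/- cells, against 3.05% and 6.55% of all genes. The median of the list was −0.29. S100a8, a subunit of calprotectin, was lowest at −1.82. The EGF receptor ligand gene Areg was highest at 1.20. Without calcium 14 of 17 compared were below 0 in -/- cells, at a median of −0.71. The median of all genes was −0.18 in that comparison, and 60.8% of them lay below the −0.08 of Lce3f. At least 2-fold lower were 5 of the 17, where 4.31% of all genes were. The response differences of the list use these untreated arrays too. The antimicrobial gene Defb14 and the stress keratin Krt16 had calcium responses of 5.10 and 3.13 in -/- cells and 5.53 and 2.92 in +/+ cells. The response difference of Defb14, −0.44, was the lowest of the list. Of the 17 genes of the list that could be compared on all 4 arrays, 0 had a response difference below −1, where 0.629% of all genes did. Above 1 were 3, Il19 (1.55), Il20 (1.43) and Areg (1.24), where 1.91% of all genes were. Il19 and Il20 encode cytokines of the IL-10 family and were named after their values were seen.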

How the data were processed

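RNA from 4 cell pools was measured on 1 array each. Per the file headers, the authors' deposited signals are an intensity from Agilent Feature Extraction 11.5.1.1, which subtracted background and a spatial trend on each array. The deposited value table is a ratio of that signal to about the array's 75th percentile, as comparison with the scanner signals showed, with no log taken and no centring, and medians of 0.0612 to 0.066. No columns of other samples were found.

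Here, 105 to 116 outlier spots per array were dropped, and each log2 signal was set against the 75th percentile of 43020 spots that are not controls. The median SD over 10 repeat spots of a probe was 0.07 log2. Probes were named by accession (27508) or kept the file's name (11921), and a gene was read from its brightest probe. Comparisons of 2 arrays took genes detected on 1 or both. A dim side was set to the higher of its own value and the lowest detected signal. Where its own value was higher, as for Lce3e in untreated +/+ cells, the difference is not a strict bound. Response differences needed all 4 arrays. Counts are at 2-fold, and no test was possible. The code was tested on simulated arrays.

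Named genes are the members, up to 4 genes of each list (highest, lowest or of known role) and the 10 genes most alike. Neighbours, and genes with opposite genotype differences, were named after their values were seen. The members and lists were chosen with earlier results of these data known. Lce6a had no value here. Alternatives were quantile scaling, normexp (offset 50), the median of detected probes as scale, the mean of probes, the value table, no filter, a 3-fold threshold and, added later, scaling to 10 keratinocyte markers. Software was Python 3.11.15 with numpy 2.4.6 and pandas 2.3.3, and R 4.3.3 with limma 3.58.1.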

Additional observations from a re-analysis of the deposited data

Results flagged for a closer look

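The difference between -/- and +/+ cells had opposite signs without and with calcium in 4 Lce3 genes. Among these, the similar probes of Lce3b, Lce3c and Lce3d are uncertain as separate measurements. Without calcium, Lce3b stood at 0.72 log2, Lce3c at 0.92, Lce3d at 0.76 and Lce3e at 1.29, on the side of higher in -/- cells. With calcium the same genes were at −2.15, −2.09, −2.13 and −2.55. The value of Lce3e without calcium uses a level not well above background in +/+ cells. Lce3a and Lce3f lay within scanner error of no difference without calcium. With 1 array in each group the change of sign was not tested.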

How the results depend on the processing

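All 5 median differences kept their sign under each of the alternatives tried. Each member has 1 probe, and the mean of probes, the values without a filter and the value table moved no single-gene value by over 0.01 log2. Under the other 4 scalings and corrections, 90 of 120 single-gene values moved by less than their scanner error. With normexp background correction the median calcium response was 1.40 log2 in -/- cells and 4.03 in +/+ cells, and the number of members at least 2-fold higher in -/- cells without calcium was 0. At a 3-fold threshold 3 members, Lce3a, Lce3b and Lce3c, were counted in the -/- calcium response and 0 in the difference without calcium. Scaling to keratinocyte markers, chosen after the data were seen, gave medians of 2.0 for the -/- calcium response, −1.83 for the genotype difference with calcium and 1.07 without, and 4 members at least 2-fold higher in -/- cells without calcium. It placed the median of all genes at 0.36 in the genotype difference with calcium. Quantile scaling and scaling to the median of detected probes moved none of these medians beyond scanner error. The low signals of Lce3a, Lce3e and Lce3f without calcium limit their differences most. No paired analysis was possible because each group is 1 array.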
